A study of Neurospora crassa with 12 samples.

Results

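The transcript levels of the Neurospora crassa Δclr-5 mutant were compared with those of the wild-type strain (WT) after a shift of growing mycelia to 2% Avicel, a microcrystalline cellulose, in Vogel's salts, in which ammonium nitrate is the nitrogen source. The comparison takes every gene of the count table and the 4 libraries made from this medium, of 12 libraries in the series. They are 2 independent Δclr-5 cultures and 2 independent WT cultures. The other 8 libraries hold both strains on 2% Avicel with 50 mM histidine or 50 mM leucine as the only nitrogen source, 2 cultures a group. Δclr-5 is a stock-centre deletion mutant of NCU05383, and WT is FGSC 2489. All cultures were first grown for 16 h in 2% glucose under constant light at 25 °C. The sample labels give 8 h of induction on Avicel and the methods of the study 4 h. Each genotype is represented by 1 strain, so that a difference between the strains at any other locus cannot be told apart from the deletion.

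CLR-5 belongs to the fungal family of binuclear zinc cluster (Zn2Cys6) transcription factors, which bind promoter DNA and switch sets of metabolic genes. On cellulose, N. crassa secretes cellulases and lytic polysaccharide monooxygenases, whose genes are activated by the regulators CLR-1, CLR-2 and XLR-1 and repressed by CRE-1 when glucose is at hand. Starved or aerially exposed hyphae also turn to asexual sporulation, in which the regulator FL drives conidiophores and the hydrophobin EAS coats the conidia.

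The deleted gene clr-5 (NCU05383, chromosome II from 1471066 to 1475393 of the OR74A assembly) had 33 and 36 counts in the Δclr-5 cultures, against 480 and 368 in the WT cultures. These are 2.02 and 1.94 CPM in Δclr-5, against 33.8 and 27.6 CPM in WT (CPM, read counts scaled to 1e6 by the TMM-adjusted library sizes), without overlap (log2 fold change -3.95, standard error 0.21, adjusted p = 3.63e-06, from edgeR's quasi-likelihood test with Benjamini-Hochberg adjustment over all genes tested). Some counts of the gene were left in each of the 6 Δclr-5 libraries of the series, 27 to 63 per library. The adjacent gene NCU05384 had 9.42 and 9.58 CPM in Δclr-5, against 7.61 and 6.45 CPM in WT and was not called (log2 fold change 0.43, adjusted p = 0.156).

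Total counts were 18730268 and 18884865 in the Δclr-5 cultures and 17246597 and 17112509 in the WT cultures, and 8805 of 9730 genes were tested. The label mycelium was checked against 9 tested hyphal marker genes, which summed to 8832 and 8275 CPM in Δclr-5 and 7349 and 7097 CPM in WT. Of these 9 genes, 3 were called higher in Δclr-5 and none lower. The Woronin body gene hex-1 had 5191 and 4746 CPM in Δclr-5, against 3912 and 3504 CPM in WT (adjusted p = 0.161), and none of the hyphal markers was at 0 in any of these libraries. RNA of sporulation genes was present as well. The conidiation genes described below summed to 4015 and 36829.6 CPM in Δclr-5 and 363 and 398 CPM in WT. The 2 Δclr-5 cultures stood farther apart than those of any other group. The median absolute log2 difference between the cultures of a group was 0.35 in Δclr-5 and 0.22 in WT on Avicel, and 0.13 to 0.22 in the other 4 groups. A difference of at least 2-fold between cultures was seen for 11.98% of genes in Δclr-5 and 5.33% in WT.

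Of the 8805 genes, 737 were lower in Δclr-5 (8.37% of genes tested) and 1035 were higher (11.8%) when calls required both an adjusted p under 0.05 and a change of 0.5 log2 units or more. These shares over all genes are the background for each list count given below. The median absolute log2 fold change was 1.29 among the genes called higher and 0.88 among those called lower, and 284 increases but 42 decreases reached 2 log2 units. At 3 log2 units, 136 increases and 13 decreases remained in the count. Both directions were spread over the genome, with 6.78% to 10.1% of tested genes lower and 10.1% to 14.4% higher on each of the 7 chromosomes. Sorted by mean level into 4 equal classes, 4.77% of the least expressed genes and 8.5% to 10.4% of the other classes were lower, and 9.67% of the least and 14.9% of the most expressed were higher. The calls depended on single libraries. Leaving out Δclr-5 culture 1 gave 1204 lower and 1523 higher genes, and leaving out Δclr-5 culture 2 gave 629 and 837. Leaving out WT culture 1 gave 349 and 398, and leaving out WT culture 2 gave 607 and 599. Without any 1 of the 4 libraries, 261 lower and 320 higher genes kept their call each time, and the genes described first below were taken from these. Scaling by library size alone put the median over all genes at 0.21 on the log2 scale, against -0.01 with TMM, and gave 401 lower and 1694 higher genes. The test takes its spread from all 6 groups, while the Δclr-5 cultures on Avicel stood farthest apart. Its p-values can therefore understate the spread of this comparison. A fit of only the 4 Avicel libraries gave 119 lower and 203 higher genes. Of the lists described below, that fit called 2 conidiation genes higher and 2 sulfur genes lower. It called none of the nitrogen or endoplasmic reticulum genes.

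The 12 largest of the decreases that kept their call without each library include clr-5, a mating pheromone gene and a glutathione transferase gene, beside 9 genes known here by locus only. NCU09968 had 0 counts in both Δclr-5 cultures, against 1534 and 1370 in the WT cultures, at least 1227-fold lower when a group at 0 is taken at a floor of 3 counts in all. ccg-4 (NCU02500), which encodes the pheromone precursor of mating type A strains, had 0 and 2 counts in Δclr-5, against 3594 and 3307 in WT. The WT counts were 4377 times those of Δclr-5 (95% counting interval 1211 to 36150). Both genes therefore had few or no counts in Δclr-5 and many in WT. Counts at or near 0 do not tell a silent gene from one that is missing or altered in the strain. The strains also differed in mating genes, as described below.

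The next decreases were partial. NCU09800 had 27.4 and 10.1 CPM in Δclr-5, against 124 and 206 CPM in WT (log2 fold change -3.15, standard error 0.41, adjusted p = 0.00119). NCU05888 had 16.3 and 6.19 CPM in Δclr-5, against 65.6 and 101 CPM in WT (log2 fold change -2.90, standard error 0.39, adjusted p = 0.00119), and its neighbour NCU05887 on chromosome VII had 8.51 and 5.11 CPM in Δclr-5, against 32.98 and 45.2 CPM in WT (log2 fold change -2.52, standard error 0.30, adjusted p = 0.000408). The Δclr-5 values of these genes all lay below those of WT, with culture 2 the lower of the 2 mutant cultures. NCU07610 showed the same order, with 16.5 and 4.68 CPM in Δclr-5, against 44.5 and 93.8 CPM in WT (log2 fold change -2.71, standard error 0.51, adjusted p = 0.00579). In contrast, the mutant cultures lay close together for NCU05980, with 5.32 and 6.29 CPM in Δclr-5, against 37.4 and 37.6 CPM in WT (log2 fold change -2.69, standard error 0.14, adjusted p = 2.95e-06). The same held for NCU10512, with 6.49 and 5.81 CPM in Δclr-5, against 28.5 and 32.2 CPM in WT (log2 fold change -2.30, standard error 0.19, adjusted p = 5.99e-05), and for NCU05752, with 25.1 and 26.1 CPM in Δclr-5, against 129.9 and 112 CPM in WT (log2 fold change -2.24, standard error 0.21, adjusted p = 0.000119). NCU03235 had a log2 fold change of -2.30 (adjusted p = 0.000213). gst-4 (NCU10521), annotated by its symbol as a glutathione S-transferase gene, had 34.5 and 23.6 CPM in Δclr-5, against 142 and 137 CPM in WT (log2 fold change -2.26, standard error 0.25, adjusted p = 0.000313).

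**Figure D1:**
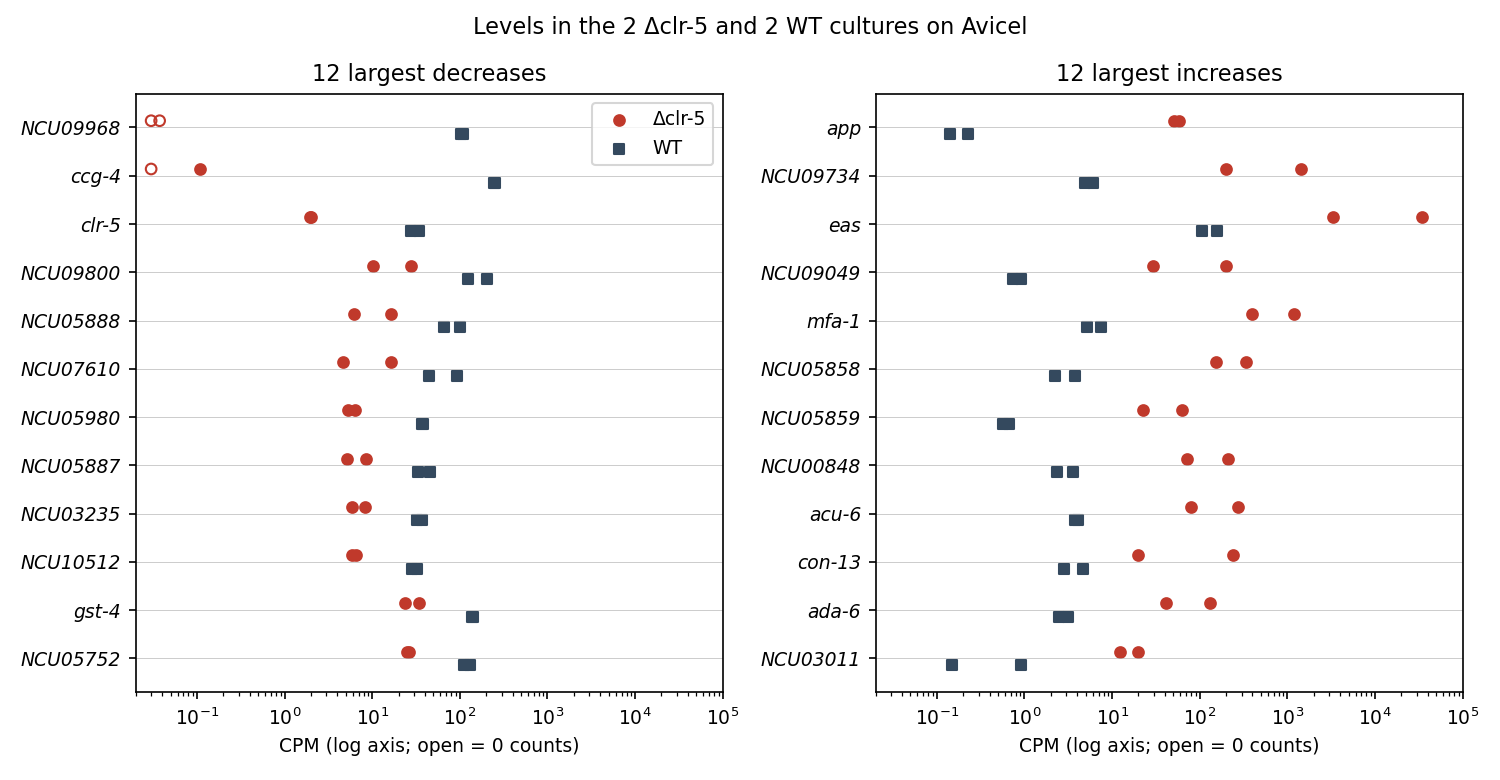
CPM (log axis) of the 12 largest decreases and the 12 largest increases among genes whose call held without each of the 4 Avicel libraries. Red circles are the 2 Δclr-5 cultures and dark squares the 2 WT cultures, and an open symbol at the left edge is a library with 0 counts. The strains do not overlap for any of the 24 genes, which were chosen for their difference, and the Δclr-5 cultures of eas are at 3293 and 34561 CPM.

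The 12 largest increases chosen in the same way include genes of development, metabolism and mating. The gene app (NCU04533), named for an abundant protein of fruiting bodies, had 936 and 943 counts in the Δclr-5 cultures against 2 and 3 in the WT cultures, 296 times as many after scaling (95% counting interval 127 to 913). NCU09734 had 202 and 1438 CPM in Δclr-5, against 5.99 and 4.95 CPM in WT (log2 fold change 7.22, standard error 0.92, adjusted p = 0.00107), and NCU09049 had 29.3 and 199 CPM in Δclr-5, against 0.916 and 0.749 CPM in WT (log2 fold change 7.09, standard error 0.92, adjusted p = 0.00117). For both, Δclr-5 culture 2 was far above Δclr-5 culture 1. NCU05858 and NCU05859 lie next to each other on chromosome VII. NCU05858 had 155 and 335 CPM in Δclr-5, against 3.74 and 2.25 CPM in WT (log2 fold change 6.35, standard error 0.48, adjusted p = 5.75e-05), and NCU05859 had 22.7 and 63.4 CPM in Δclr-5, against 0.564 and 0.674 CPM in WT (log2 fold change 6.11, standard error 0.59, adjusted p = 0.000243). NCU00848 (chromosome I from 6967984 to 6970315), annotated as an integral membrane protein TmpA, had 72.2 and 213 CPM in Δclr-5, against 2.33 and 3.60 CPM in WT (log2 fold change 5.59, standard error 0.51, adjusted p = 0.000139). NCU03011 had 12.4 and 19.5 CPM in Δclr-5, against 0.916 and 0.150 CPM in WT (log2 fold change 4.86, standard error 0.47, adjusted p = 0.000183), and its WT cultures differed from each other by a larger factor than its Δclr-5 cultures. ada-6 (NCU04866), a zinc cluster regulator gene named for altered development, had 41.3 and 129.6 CPM in Δclr-5, against 2.47 and 3.15 CPM in WT (log2 fold change 4.93, standard error 0.62, adjusted p = 0.00105). In each of these genes both Δclr-5 cultures lay above both WT cultures.

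The strains also differed in mating genes. matA-1 (chromosome I from 1860692 to 1862194), the mating type A regulator, had 0 counts in both Δclr-5 cultures, against 134 and 125 in WT, at least 110-fold lower. It had 0 counts in all 6 Δclr-5 libraries of the series. mfa-1 (NCU16992), the pheromone precursor of mating type a strains, had 1205 and 398 CPM in Δclr-5, against 7.54 and 5.17 CPM in WT (log2 fold change 6.98, standard error 0.55, adjusted p = 5.06e-05). The pheromone receptor gene pre-2 had 47.3 and 24.6 CPM in Δclr-5, against 2.26 and 1.57 CPM in WT (log2 fold change 4.22, standard error 0.41, adjusted p = 0.000140), and poi-2, a gene of perithecial development, had 40 and 31 counts in Δclr-5, against 2 and 1 in WT, 18.7 times as many (interval 6.13 to 92.6). Of 9 tested mating genes, 2 were lower and 4 higher, and all 6 kept their call without each library. By matA-1, ccg-4 and mfa-1, WT had the pattern of a mating type A strain and Δclr-5 that of a mating type a strain. A gene that a strain lacks also has 0 counts, so the fold given for matA-1 need not be a change in expression. Effects of the clr-5 deletion and of the mating type of the strain cannot be told apart here.

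Apart from matA-1 and NCU09968, 2 genes had 0 counts in Δclr-5 on Avicel and at least 1 CPM in both WT cultures. NCU09969, with 221 and 155 counts in WT (at least 158-fold lower in Δclr-5), lies on chromosome VI from 314113 to 320071 and overlaps NCU09968, which spans 309546 to 315476. The strand setting of the counting is not given, so reads of the shared stretch cannot be assigned to either gene. NCU16528 (chromosome II from 1152277 to 1154521) had 114 and 82 counts in WT (at least 82.5-fold lower in Δclr-5). All 4 of these genes were also at 0 in the Δclr-5 libraries on histidine and leucine, while each WT library of those media held counts. The opposite pattern was seen for NCU04867, with 26 and 61 counts in Δclr-5 and 0 in WT (at least 22.4-fold higher), and for NCU05093, with 31 and 103 counts in Δclr-5 and 0 in WT (at least 34.1-fold higher).

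Sporulation genes rose in Δclr-5. Among 12 genes of conidiation, Δclr-5 had 11 called higher and 0 called lower, with a median log2 fold change of 2.92 against -0.01 over all genes tested. The hydrophobin gene eas (NCU08457, chromosome II from 3570905 to 3572798) had 3293 and 34561 CPM in Δclr-5, against 106 and 158 CPM in WT (log2 fold change 7.16, standard error 1.04, adjusted p = 0.00187). It took 0.287% and 3.40% of all counts in the Δclr-5 cultures, against 0.00876% and 0.0123% in WT. The Δclr-5 cultures were far apart, and both lay above WT. The regulator gene fl (NCU08726) had 80.8 and 357 CPM in Δclr-5, against 22.8 and 24.9 CPM in WT (log2 fold change 3.20, standard error 0.55, adjusted p = 0.00415), and rca-1 (NCU01312), a MYB-type regulator gene of the same list, had 53.6 and 85.5 CPM in Δclr-5, against 13.7 and 10.4 CPM in WT (log2 fold change 2.52, standard error 0.31, adjusted p = 0.000679). con-8 had 298 and 598 CPM in Δclr-5, against 66.2 and 67.3 CPM in WT (log2 fold change 2.75, standard error 0.32, adjusted p = 0.000492) and con-13 had 19.9 and 241 CPM in Δclr-5, against 4.65 and 2.85 CPM in WT (log2 fold change 5.12, standard error 0.97, adjusted p = 0.00632). con-6, which is induced during conidiation, had 8.08 and 184 CPM in Δclr-5, against 1.97 and 1.80 CPM in WT (log2 fold change 5.66, standard error 1.21, adjusted p = 0.0104), and its call was lost without WT culture 1 or WT culture 2 (highest adjusted p = 0.0763). The list summed to 4015 and 36829.6 CPM in Δclr-5 and 363 and 398 CPM in WT, most of it eas. Without 1 library, the number called higher was 11 and 10 without Δclr-5 culture 1 or 2 and 5 and 6 without WT culture 1 or 2. In these bulk cultures, more sporulating hyphae and more RNA per hypha cannot be told apart.

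Of 17 tested genes of light response and the clock, 7 were higher, none was lower and 10 were not called (median log2 fold change 0.52, 2 members negative). Over all genes tested, 11.8% were higher. The called genes included bli-4, a blue-light-induced gene, with 31.6 and 41.3 CPM in Δclr-5, against 17.1 and 15.4 CPM in WT (log2 fold change 1.17, standard error 0.17, adjusted p = 0.00131). The opsin gene nop-1 had 51.3 and 157 CPM in Δclr-5, against 32.3 and 31.2 CPM in WT (log2 fold change 1.71, standard error 0.41, adjusted p = 0.0164), and its call was lost without WT culture 1 or WT culture 2 (highest adjusted p = 0.0900). The number called higher was 9 and 5 without Δclr-5 culture 1 or 2 and 1 and 3 without WT culture 1 or 2, so that bli-4 was the 1 gene of the list that kept its call without each library. Of 6 G protein-coupled receptor genes, 3 were higher and 1 was lower. The lower one, gpr-3, had 49.1 and 53.7 CPM in Δclr-5, against 86.5 and 82.4 CPM in WT (log2 fold change -0.72, standard error 0.12, adjusted p = 0.00310) and kept its call, while gpr-1, gpr-4 and gpr-6, at 1.52, 0.89 and 0.73, each lost theirs without either WT culture.

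Of 7 genes of the glyoxylate cycle and gluconeogenesis, which serve growth when sugar is short, 4 were higher and none was lower, with a median log2 fold change of 1.56, and acu-6 alone kept its call without each library. acu-6 (NCU09873, chromosome VI from 1824832 to 1828327), which encodes phosphoenolpyruvate carboxykinase, the entry step of gluconeogenesis, had 78.7 and 274 CPM in Δclr-5, against 3.74 and 4.05 CPM in WT (log2 fold change 5.50, standard error 0.75, adjusted p = 0.00137). The isocitrate lyase gene acu-3 had 25.2 and 84.7 CPM in Δclr-5, against 11.3 and 14.6 CPM in WT (log2 fold change 2.08, standard error 0.48, adjusted p = 0.0137), the fructose-1,6-bisphosphatase gene fbp-1 had 5.94 and 20.98 CPM in Δclr-5, against 3.66 and 2.998 CPM in WT (log2 fold change 2.02, standard error 0.55, adjusted p = 0.0288), and the malate synthase gene acu-9 had 9.55 and 20.2 CPM in Δclr-5, against 5.57 and 4.57 CPM in WT (log2 fold change 1.56, standard error 0.45, adjusted p = 0.0337). In all 4 genes culture 2 was the higher of the 2 mutant cultures. The calls of acu-3, fbp-1 and acu-9 were lost without either WT culture (highest adjusted p 0.222), and the last 2 also without Δclr-5 culture 2. acu-5, which encodes acetyl-CoA synthetase, had 481 and 195 CPM in Δclr-5, against 275 and 379 CPM in WT (log2 fold change 0.05, adjusted p = 0.939). Its direction turned without Δclr-5 culture 1, at -0.75. acu-8 had 93.1 and 82.6 CPM in Δclr-5, against 123 and 120.2 CPM in WT (log2 fold change -0.47, adjusted p = 0.0331), short of the 0.5 log2 units that a call required, and acu-15 was at 0.31 (adjusted p = 0.295). Of 5 genes listed for glycogen and trehalose, 3 were higher (tre-1, tre-2 and ccg-9), all 3 of them losing their call without WT culture 1 or WT culture 2. The list also holds the clock-controlled gene ccg-1. Among 12 starch and sucrose genes, 4 were higher and 1 was lower, beside 11.8% and 8.37% over all genes tested. None of these calls was kept without each library. The glucoamylase gene gla-1 had 173 and 386 CPM in Δclr-5, against 87.3 and 141 CPM in WT (log2 fold change 1.29, standard error 0.35, adjusted p = 0.0264), and its call was lost without Δclr-5 culture 2 or WT culture 1 (highest adjusted p = 0.179).

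Cell wall genes formed another group with increases. Of 26 tested genes for wall proteins, glucan and chitin synthesis, 12 were higher and none was lower (median 0.47). The share called higher over all genes tested was 11.8%. The genes of non-anchored cell wall proteins ncw-5, ncw-6 and ncw-3 had some of the largest values. ncw-5 (NCU00716, chromosome I from 7451777 to 7453525) had 11.8 and 12.1 CPM in Δclr-5, against 0.775 and 1.12 CPM in WT (log2 fold change 3.65, standard error 0.40, adjusted p = 0.000261), with the mutant cultures nearly equal. ncw-6 had 19.3 and 95.9 CPM in Δclr-5, against 4.86 and 2.70 CPM in WT (log2 fold change 3.92, standard error 0.67, adjusted p = 0.00394) and ncw-3 had 62.3 and 123 CPM in Δclr-5, against 19.3 and 22.03 CPM in WT (log2 fold change 2.16, standard error 0.39, adjusted p = 0.00495). The genes of anchored wall proteins were divided. acw-9 had 889 and 1105 CPM in Δclr-5, against 381 and 495 CPM in WT (log2 fold change 1.19, standard error 0.20, adjusted p = 0.00293), and acw-3, acw-6, acw-4 and acw-12 were called higher at log2 fold changes of 2.54, 2.26, 1.70 and 0.99. acw-2, acw-5, acw-7, acw-8, acw-10 and acw-11 did not pass the test, with log2 fold changes between -0.23 and 0.20. Among the chitin synthase genes, chs-3 had 165 and 159.5 CPM in Δclr-5, against 84.2 and 109 CPM in WT (log2 fold change 0.75, standard error 0.15, adjusted p = 0.00629), and chs-1 was at 0.50 (adjusted p = 0.0230). The calls of acw-3, acw-6, acw-4, acw-12 and chs-3 were lost without WT culture 1, those of acw-4 and acw-12 also without Δclr-5 culture 2 and that of acw-4 also without WT culture 2, and that of chs-1 without Δclr-5 culture 1 or either WT culture. The number called higher in this list was 13 and 10 without Δclr-5 culture 1 or 2 and 4 and 9 without WT culture 1 or 2.

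Chitinases cut chitin, a polymer of the fungal wall. Of 9 tested chitinase genes, 3 were higher and 1 lower, beside 11.8% and 8.37% over all genes tested. chit-1 (NCU02184) had 163 and 346 CPM in Δclr-5, against 16.3 and 18.9 CPM in WT (log2 fold change 3.85, standard error 0.34, adjusted p = 0.000113), gh18-5 had 120.1 and 88.9 CPM in Δclr-5, against 26.8 and 29.5 CPM in WT (log2 fold change 1.89, standard error 0.17, adjusted p = 8.84e-05) and gh18-4 had 25.3 and 286 CPM in Δclr-5, against 5.36 and 6.37 CPM in WT (log2 fold change 4.73, standard error 0.91, adjusted p = 0.00653), the last losing its call without WT culture 1 (adjusted p = 0.0608). The lower one, gh18-9, was at -0.87 (adjusted p = 0.0311) and lost its call without Δclr-5 culture 2, WT culture 1 or WT culture 2 (highest adjusted p = 0.156). The 9 genes summed to 424 and 841 CPM in Δclr-5 and 154 and 178 CPM in WT. Of 15 genes named as mannosidase families, 4 were higher and 2 were lower, beside 11.8% and 8.37% over all genes tested. Enzymes of families GH47 and GH38 are known for trimming the N-linked sugars of secreted proteins. gh47-5 had 122 and 370.4 CPM in Δclr-5, against 28.1 and 20.2 CPM in WT (log2 fold change 3.35, standard error 0.48, adjusted p = 0.00168), and gh76-2 and gh76-3, at 0.80 and 0.79, were each above WT in both cultures and kept their call without each library. gh38-1 was also called higher, at 0.82, and gh47-7 and gh47-3 were lower, at -1.08 and -0.66, and these 3 lost their call without WT culture 1.

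**Figure D2:**
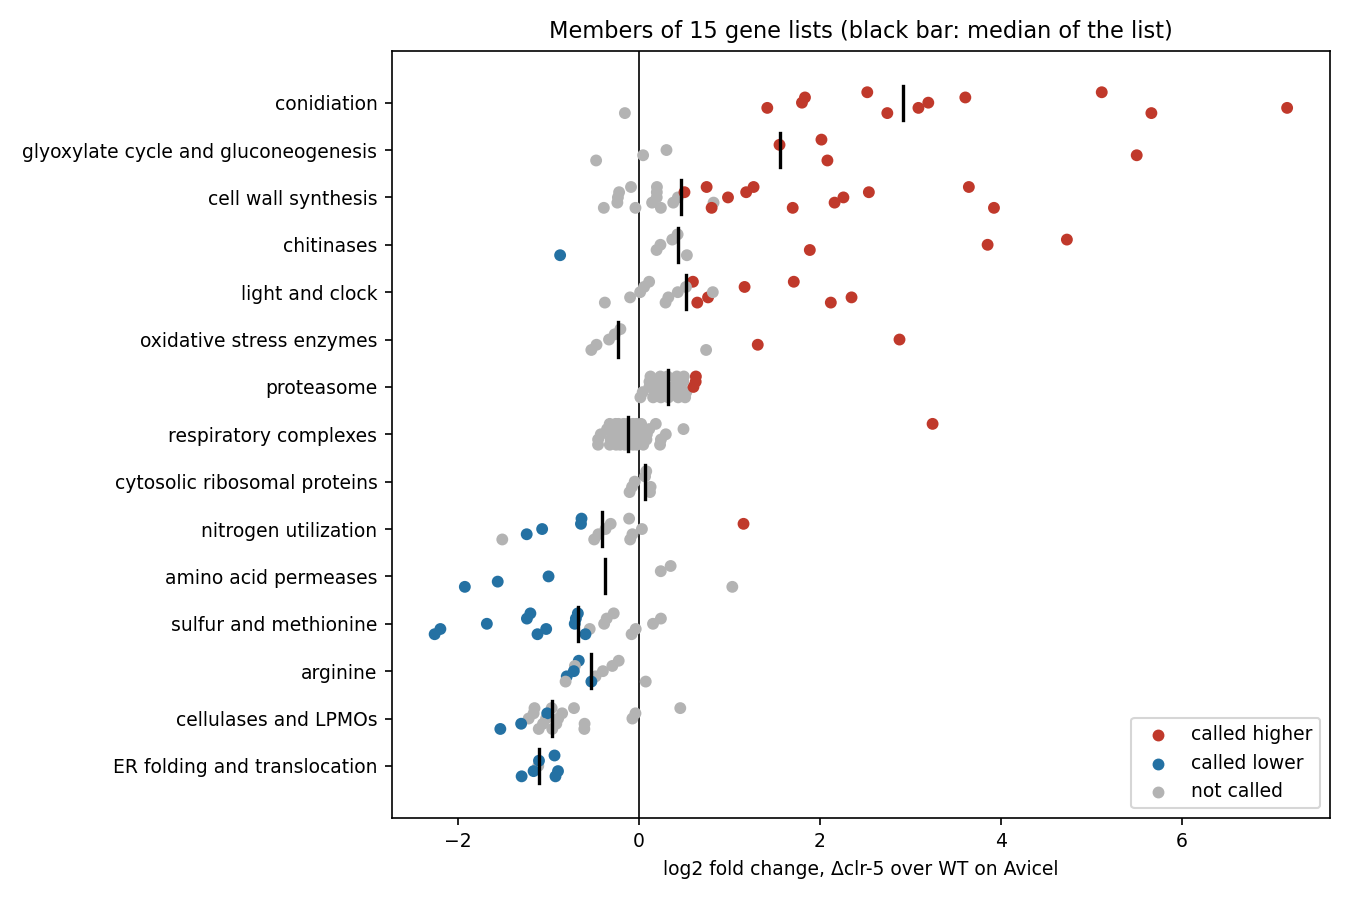
Log2 fold change of Δclr-5 over WT on Avicel for each tested member of 15 gene lists. Red points were called higher, blue points lower and grey points not called, and the black bar is the median of the list, 2.92 for conidiation and -0.67 for sulfur and methionine. Points are offset up or down only to separate them.

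Genes of sulfur assimilation were lower or not called in Δclr-5. Of 19 genes for sulfur uptake, cysteine and methionine, 11 were lower and none was higher, with a median of -0.67, and 6 of them kept their call without each library. The sulfate permease gene cys-14 (NCU04433) had 83.6 and 26.6 CPM in Δclr-5, against 201 and 302 CPM in WT (log2 fold change -2.19, standard error 0.43, adjusted p = 0.00687). The arylsulfatase gene ars-1 had 2.999 and 1.08 CPM in Δclr-5, against 7.61 and 11.7 CPM in WT (log2 fold change -2.26, standard error 0.41, adjusted p = 0.00413). cys-11 (NCU01985), which encodes ATP sulfurylase, the first step of sulfate assimilation, had 372 and 181 CPM in Δclr-5, against 855 and 916 CPM in WT (log2 fold change -1.68, standard error 0.28, adjusted p = 0.00290), and the methionine gene met-7 had 48.4 and 33.5 CPM in Δclr-5, against 89.1 and 98.6 CPM in WT (log2 fold change -1.20, standard error 0.17, adjusted p = 0.00118). cys-16 and cys-12 were at -1.24 and -0.70 and kept their call as well. The list's bZIP activator gene cys-3 had 318 and 246 CPM in Δclr-5, against 397 and 502 CPM in WT (log2 fold change -0.67, standard error 0.18, adjusted p = 0.0205), and its call was lost without Δclr-5 culture 2 or WT culture 2 (highest adjusted p = 0.123). The number called lower was 12 and 7 without Δclr-5 culture 1 or 2 and 9 and 6 without WT culture 1 or 2, and 7 with library size scaling alone.

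Amino acid uptake genes split. The study's text names pmg, NCU00711 and NCU09458 of this list as lower in Δclr-5, in its passage on the histidine and leucine media of this series. The direction of these 3 genes is therefore no independent evidence. On Avicel NCU09458 was not lower, with 25.5 and 29.8 CPM in Δclr-5, against 23.7 and 23.1 CPM in WT, and was not called. Of 6 permease genes, 3 were lower (pmg, pmb and NCU00711) and none was higher, and these 3 kept their call without each library. The other 3 had positive values. pmg (NCU03509), which encodes the general amino acid permease, had 82.6 and 82.96 CPM in Δclr-5, against 336 and 291 CPM in WT (log2 fold change -1.92, standard error 0.21, adjusted p = 0.000245). pmb, the permease of basic amino acids, had 16.03 and 15.7 CPM in Δclr-5, against 41.01 and 52.5 CPM in WT (log2 fold change -1.56, standard error 0.20, adjusted p = 0.000728), and NCU00711, placed here by the study's text, had 17.1 and 16.5 CPM in Δclr-5, against 31.5 and 35.4 CPM in WT (log2 fold change -0.997, standard error 0.15, adjusted p = 0.00138). The study's gene annotation calls NCU00711 a multidrug resistance protein. In all 3 the Δclr-5 cultures were nearly equal. mtr, the permease of neutral amino acids, had 12.9 and 64.3 CPM in Δclr-5, against 18.4 and 19.4 CPM in WT (adjusted p = 0.212), with 1 mutant culture below both WT values and the other above them.

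Nitrogen assimilation genes with a call were mostly lower. gdh-1 (NCU00461), which encodes the NAD-dependent glutamate dehydrogenase that breaks glutamate down, had 331 and 476 CPM in Δclr-5, against 191 and 171 CPM in WT (log2 fold change 1.16, standard error 0.22, adjusted p = 0.00529). am, which encodes the NADP-dependent enzyme that makes glutamate from ammonium, had 2411 and 774 CPM in Δclr-5, against 3564 and 5496 CPM in WT (log2 fold change -1.51, standard error 0.52, adjusted p = 0.0634), not enough for a call. The glutamate synthase gene en(am)-2 had 496 and 222 CPM in Δclr-5, against 740.3 and 953 CPM in WT (log2 fold change -1.24, standard error 0.35, adjusted p = 0.0297), and the glutamine synthetase gene gln-1 had 639 and 543 CPM in Δclr-5, against 826 and 1015 CPM in WT (log2 fold change -0.64, standard error 0.17, adjusted p = 0.0246). The nitrate reductase gene nit-3 had 14.1 and 11.1 CPM in Δclr-5, against 28.2 and 24.5 CPM in WT (log2 fold change -1.07, standard error 0.26, adjusted p = 0.0163). Of 14 nitrogen genes, 4 were lower and 1 was higher, beside 8.37% and 11.8% over all genes tested. Only gdh-1 kept its call without each library, and the number called lower was 8 and 1 without Δclr-5 culture 1 or 2 and 1 and 1 without WT culture 1 or 2. Without Δclr-5 culture 2, calls ended for nit-3, en(am)-2, xdh-1 and gln-1.

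Amino acid biosynthesis genes had mostly negative fold changes, a minority of which passed the test. Over all genes tested, 8.37% were called lower. Of 11 arginine genes 4 were lower and 10 were negative, of 10 aromatic amino acid genes 2 were lower and all 10 were negative, and of 8 serine, threonine and lysine genes none was called and all 8 were negative. With 0 called among these 8, DESeq2 called 3 lower. trp-5, the tryptophan synthase gene, had 68.2 and 63.4 CPM in Δclr-5, against 94.2 and 101 CPM in WT (log2 fold change -0.57, standard error 0.12, adjusted p = 0.00731) and kept its call without each library, as none of the 4 arginine genes did. The number of arginine genes called lower was 8 and 1 without Δclr-5 culture 1 or 2 and 0 and 2 without WT culture 1 or 2. Among 9 branched-chain genes, ilv-5 (NCU02397) had the opposite change, with 33.7 and 79.6 CPM in Δclr-5, against 10.4 and 8.24 CPM in WT (log2 fold change 2.61, standard error 0.37, adjusted p = 0.00159), and none was lower. With library size scaling alone, no arginine or aromatic gene was lower.

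Cellulase genes held a large share of all counts in both strains. cbh-1, the gene of the main cellobiohydrolase, took 6.15% and 4.35% of counts in Δclr-5, against 7.83% and 7.26% in WT, and gh6-2 took 3.54% and 2.11% in Δclr-5, against 3.74% and 3.77% in WT. Neither was called (adjusted p = 0.425 and adjusted p = 0.574). Among the 20 tested genes for cellulases and lytic polysaccharide monooxygenases, 3 were lower, none was higher and 19 had negative values (median -0.96). The share called lower over all genes tested was 8.37%. The 20 genes summed to 186593 and 116508 CPM in Δclr-5 and 257739 and 271110.0 CPM in WT. gh7-2 alone among them kept its call without each library, with 767 and 552 CPM in Δclr-5, against 1832 and 1974 CPM in WT (log2 fold change -1.53, standard error 0.31, adjusted p = 0.00719), and the number called lower was 6 and 2 without Δclr-5 culture 1 or 2 and 2 and 2 without WT culture 1 or 2. Of the 6 hemicellulase genes, all of them for xylanase families, 3 were lower and 1 was higher (median -1.08). gh11-1 had 768 and 344 CPM in Δclr-5, against 4396 and 4327 CPM in WT (log2 fold change -2.97, standard error 0.57, adjusted p = 0.00662), and its call was lost without Δclr-5 culture 2 (adjusted p = 0.0598). gh10-3 had 76.1 and 41.9 CPM in Δclr-5, against 219.7 and 354 CPM in WT (log2 fold change -2.28, standard error 0.52, adjusted p = 0.0134), and its call was lost without Δclr-5 culture 2 or WT culture 2 (highest adjusted p = 0.152). In both, the Δclr-5 cultures lay far below those of WT. gh10-2 had a smaller difference, with 1287 and 1182 CPM in Δclr-5, against 2145 and 2181 CPM in WT (log2 fold change -0.81, standard error 0.18, adjusted p = 0.00946), and kept its call without each library. The higher one, gh10-4, had 1.65 and 34.2 CPM in Δclr-5, against 1.41 and 0.225 CPM in WT (log2 fold change 4.43, standard error 1.28, adjusted p = 0.0355), and its call, which rests on Δclr-5 culture 2, was lost without Δclr-5 culture 2, WT culture 1 or WT culture 2 (highest adjusted p = 0.484). gh10-1 and gh11-2, at -1.13 and -1.03, did not pass the test (adjusted p = 0.170 and 0.0699). The polygalacturonase gene gh28-2 had 27.2 and 39.6 CPM in Δclr-5, against 90.2 and 66.8 CPM in WT (log2 fold change -1.23, standard error 0.21, adjusted p = 0.00328) and kept its call without each library. The cellodextrin transporter gene cdt-2 had 17478 and 14599 CPM in Δclr-5, against 15356 and 15102 CPM in WT (log2 fold change 0.07, adjusted p = 0.862) and was not called.

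Of 7 regulator genes of this system, 2 were higher, cre-1 and rca-1 of the conidiation list, and none was lower. clr-1 had 373 and 204 CPM in Δclr-5, against 548 and 473 CPM in WT (log2 fold change -0.83, standard error 0.27, adjusted p = 0.0545), clr-2 had 544 and 225 CPM in Δclr-5, against 677 and 603 CPM in WT (log2 fold change -0.74, standard error 0.48, adjusted p = 0.303) and xlr-1 had 390.4 and 246 CPM in Δclr-5, against 469 and 438 CPM in WT (log2 fold change -0.51, standard error 0.23, adjusted p = 0.136), and none of these 3 passed the test. cre-1, the carbon catabolite repressor gene, had 305 and 192 CPM in Δclr-5, against 64.8 and 129 CPM in WT (log2 fold change 1.36, standard error 0.31, adjusted p = 0.0122), and its call was lost without WT culture 1 (adjusted p = 0.0781). Without Δclr-5 culture 1, 4 of the 7 regulator genes were lower, against 0 with all libraries.

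Of 7 genes for protein folding and translocation in the endoplasmic reticulum, chosen by the study on these libraries and so no independent evidence of their direction, 6 were lower, and the chaperone gene grp78, of the heat shock list, was lower as well with 4389 and 2094 CPM in Δclr-5, against 9069 and 8078 CPM in WT (log2 fold change -1.40, standard error 0.39, adjusted p = 0.0267). The call of grp78 was lost without Δclr-5 culture 2, WT culture 1 or WT culture 2 (highest adjusted p = 0.114). NCU08379, for a SEC61 translocation protein, had 232 and 189.8 CPM in Δclr-5, against 404 and 378 CPM in WT (log2 fold change -0.89, standard error 0.18, adjusted p = 0.00725) and was the 1 member that kept its call without each library. The number called lower in the list was 7 and 3 without Δclr-5 culture 1 or 2 and 1 and 3 without WT culture 1 or 2.

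Of 15 genes for calcium and cation transport, 3 were lower and 1 was higher, beside 8.37% lower and 11.8% higher over all genes tested. The lower ones include the copper transporter genes tcu-1, with 49.1 and 39.2 CPM in Δclr-5, against 111 and 92.3 CPM in WT (log2 fold change -1.21, standard error 0.21, adjusted p = 0.00365), and tcu-3, with 50.5 and 46.9 CPM in Δclr-5, against 106 and 85.4 CPM in WT (log2 fold change -0.97, standard error 0.18, adjusted p = 0.00427), both kept without each library. The third gene of this name, tcu-2, had 80.6 and 85.1 CPM in Δclr-5, against 125 and 109 CPM in WT (log2 fold change -0.50, adjusted p = 0.0625) and was not called.

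Several large complexes showed little change beside single stress genes. None of 7 ribosomal protein genes and none of 14 vacuolar ATPase genes passed the test with edgeR or with DESeq2, with medians of 0.07 and 0.09. Of 50 genes listed by symbol under respiratory complexes, 1 was called. The list also holds cyt and aod genes that are not parts of the respiratory chain. The called gene was the alternative oxidase gene aod-1 (NCU07953), which bypasses the cytochrome chain, with 59.4 and 48.2 CPM in Δclr-5, against 5.99 and 5.32 CPM in WT (log2 fold change 3.25, standard error 0.56, adjusted p = 0.00425). Among 8 genes of oxidative stress enzymes, 2 were higher. The catalase gene cat-1 had 64.5 and 237 CPM in Δclr-5, against 21.001 and 19.9 CPM in WT (log2 fold change 2.88, standard error 0.48, adjusted p = 0.00377) and the catalase-peroxidase gene cat-2 had 645 and 507 CPM in Δclr-5, against 212 and 251 CPM in WT (log2 fold change 1.31, standard error 0.19, adjusted p = 0.00118), with all 3 of these stress-related calls kept without each library. Over all genes tested, 11.8% were called higher, the share to set beside the proteasome and peroxin genes. The 30 proteasome genes all had positive values, of which 3 passed the test (median 0.32). The number called was 11 and 1 without Δclr-5 culture 1 or 2 and 0 and 5 without WT culture 1 or 2, and 15 with library size scaling alone. Among 20 peroxin genes, which serve peroxisome assembly, 3 were higher and 18 were positive (median 0.40), with 9 called when Δclr-5 culture 1 was left out and 0 when WT culture 1 was. The polyketide synthase gene pks-3 had 61.7 and 55.7 CPM in Δclr-5, against 12.1 and 14.8 CPM in WT (log2 fold change 2.12, standard error 0.17, adjusted p = 5.75e-05), and the incompatibility gene het-c had 58.6 and 66.7 CPM in Δclr-5, against 30.3 and 35.3 CPM in WT (log2 fold change 0.93, standard error 0.13, adjusted p = 0.00118).

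The mutant cultures differed in the size of the change. Culture 2 lay farther from the WT mean than culture 1 for 523 of the 737 genes called lower (71.0%) and 733 of the 1035 called higher (70.8%). The median log2 difference from the WT mean was -0.77 in culture 1 and -0.97 in culture 2 among the lower genes, and 1.002 in culture 1 and 1.41 in culture 2 among the higher ones. Other genes ran the other way. mfa-1, already given, had its higher level in culture 1, as did NCU01871 (2492 and 759 CPM in Δclr-5, against 18.7 and 99.1 CPM in WT, log2 fold change 4.79, standard error 0.87, adjusted p = 0.00520) and NCU07853 (751 and 338 CPM in Δclr-5, against 11.8 and 37.8 CPM in WT, log2 fold change 4.46, standard error 0.65, adjusted p = 0.00187). The level of eas was higher in culture 2 as well, and the part of sporulation in the other differences between the cultures was not tested.

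**Figure D3:**
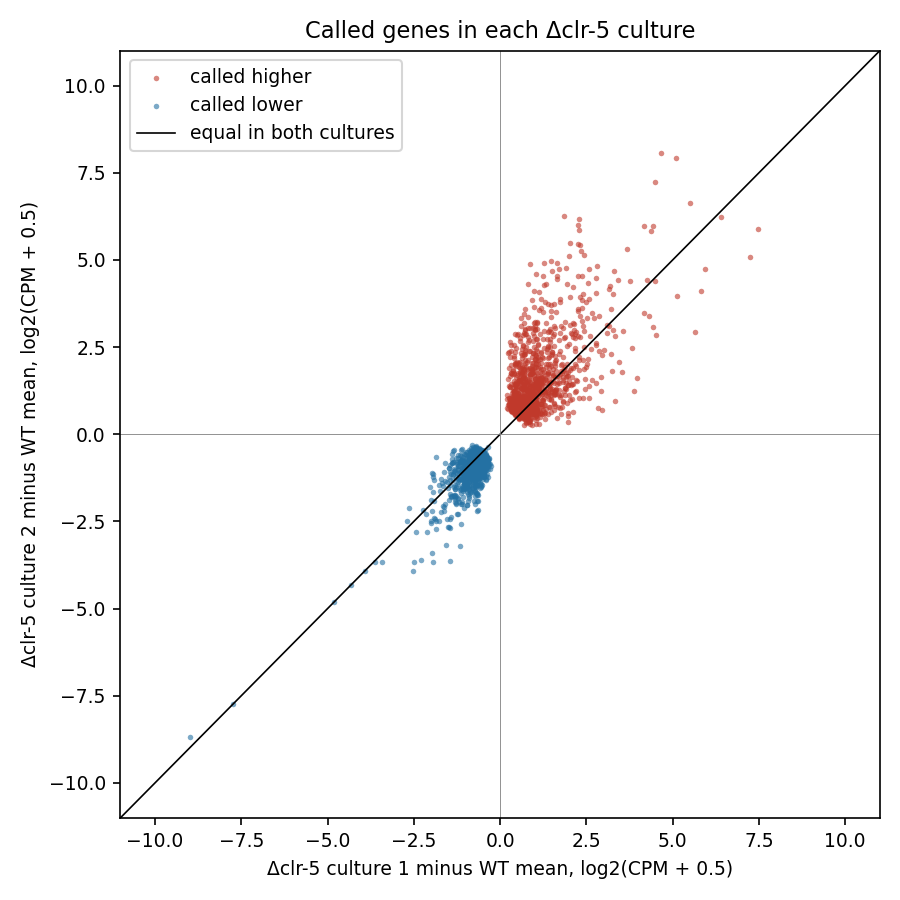
Difference of Δclr-5 culture 1 (x axis) and Δclr-5 culture 2 (y axis) from the mean of the 2 WT cultures, on the log2(CPM + 0.5) scale, for the 1035 genes called higher (red) and the 737 called lower (blue). The line marks equal differences. Most red points lie above it and most blue points below it, since 70.8% and 71.0% of these genes were farther from WT in culture 2.

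Genes with the same change lay beside each other more often than other genes did. Of the 737 lower genes 30.26% had an adjacent tested gene that was also lower, against 14.59% of the remaining genes, and of the 1035 higher genes 37.20% had an adjacent higher gene, against 19.72%. Without genes that overlap a neighbour, the shares were 30.81% against 14.16% and 37.23% against 20.74%. These shares describe the table and carry no test. The longest runs were named after their values were seen. A run of 7 higher genes on chromosome IV (4603386 to 4621493) goes from NCU07257 to gel-4, a gene for a wall glucanosyltransferase, and one of 7 on chromosome VI (3586229 to 3607109) goes from NCU05143 to NCU05136 and includes ncw-1. On chromosome I, a run of 5 (7907356 to 7926022) holds ncw-6 and the carotenoid gene al-2. On chromosome IV, a run of 5 (513043 to 548863) holds pks-3 with ada-6 and NCU04867, described above. The longest runs of lower genes had 4 members, 1 of them on chromosome I from NCU02061 to NCU02058.

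The difference between the strains was called different between nitrogen sources for a minority of genes, and genes without this call need not be unchanged. The test was the difference of the 2 log2 fold changes, Avicel minus amino acid medium, in the same fit. It was called for 1263 genes against histidine (14.3% of genes tested, 468 negative and 795 positive) and for 488 against leucine (5.54%, 163 negative and 325 positive). Among genes called on Avicel, 35.38% differed from histidine and 15.86% from leucine. Among genes not called on Avicel, 9.04% and 2.94% did. The Avicel libraries enter both tests, so these shares are not independent of the call on Avicel. The counts depended on the fit. Against histidine they ranged from 471 (without Δclr-5 culture 1 on histidine) to 2392 (without Δclr-5 culture 1 on Avicel). Against leucine they ranged from 159 (without WT culture 1 on Avicel) to 1389 (without Δclr-5 culture 1 on Avicel).

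Several of the largest decreases on Avicel were smaller on both amino acids. NCU03235 had log2 fold changes of -2.30 on Avicel, 0.29 on histidine and 0.05 on leucine, and its differences were -2.60 (standard error 0.35, adjusted p = 0.00118) from histidine and -2.35 (standard error 0.34, adjusted p = 0.00421) from leucine. NCU10512 had -2.30 on Avicel, 0.17 on histidine and -0.28 on leucine, with a difference of -2.47 (standard error 0.27, adjusted p = 0.000351) from histidine and of -2.02 (standard error 0.25, adjusted p = 0.00172) from leucine. NCU09800, at -3.15 on Avicel, -0.55 on histidine and 0.50 on leucine, and NCU05887, at -2.52 on Avicel, -0.46 on histidine and 0.99 on leucine, differed from both media in the same way. On histidine, WT itself was low, with 3.30 and 4.25 CPM for NCU03235 and 8.39 and 7.21 CPM for NCU10512. It had 7.47 and 8.34 CPM for NCU09800 and 2.48 and 1.73 CPM for NCU05887. On leucine, WT had 9.29 and 6.38, 282 and 206, 50.6 and 37.4, and 16.8 and 15.1 CPM in the same order of genes. The part of these WT levels in the smaller differences was not tested. NCU07610 had the opposite sign on leucine, with -2.71 on Avicel, 0.06 on histidine and 3.25 on leucine and a difference from leucine of -5.97 (standard error 0.71, adjusted p = 0.00218). NCU05980 was lower in Δclr-5 on each medium, with -2.69 on Avicel, -1.75 on histidine and -4.99 on leucine.

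Among the increases, acu-6 had 5.50 on Avicel, 3.86 on histidine and 0.70 on leucine, and it differed from leucine by 4.81 (standard error 0.92, adjusted p = 0.0180) but was not called different from histidine, the difference being 1.64 (standard error 0.89, adjusted p = 0.251). con-13 had 5.12 on Avicel, 0.74 on histidine and -0.21 on leucine, with a difference from leucine of 5.32 (standard error 1.29, adjusted p = 0.0468). ccg-13, a clock-controlled gene, had 119 and 134 CPM in Δclr-5, against 5.004 and 6.67 CPM in WT on Avicel and log2 fold changes of 4.43 on Avicel, -1.56 on histidine and 3.91 on leucine, with a difference from histidine of 5.998 (standard error 0.44, adjusted p = 0.000113). The monooxygenase gene gh61-4 had 11055 and 6459 CPM in Δclr-5, against 15071 and 17398 CPM in WT on Avicel (log2 fold change -0.89, adjusted p = 0.303) and was at -6.75 on histidine, a difference of 5.86 (standard error 0.90, adjusted p = 0.00290). NCU01424 had 323 and 392.4 CPM in Δclr-5, against 320.2 and 344 CPM in WT on Avicel and log2 fold changes of 0.11 on Avicel, 3.62 on histidine and 0.29 on leucine. By list, the conidiation genes had median log2 fold changes of 2.92 on Avicel, 1.18 on histidine and 0.43 on leucine, with 1 of 12 called different from histidine and 2 from leucine. The median does not describe eas, which was also far higher in Δclr-5 on both amino acids. On histidine eas had 69557 and 59388.5 CPM in Δclr-5, against 539 and 816 CPM in WT. On leucine it had 240 and 458 CPM in Δclr-5, against 0.539 and 0.806 CPM in WT (9 and 12 counts). The cellulase list had -0.96 on Avicel, -3.87 on histidine and -1.92 on leucine, with 11 of 20 genes called different from histidine and 2 from leucine. The endoplasmic reticulum list had -1.10 on Avicel, 0.80 on histidine and -1.16 on leucine, with 6 of 7 called different from histidine and 0 from leucine. Sulfur genes had -0.67 on Avicel, -0.29 on histidine and -0.45 on leucine, with 4 of 19 called different from histidine and 2 from leucine. Beside these list counts, 14.3% of all genes tested were called different from histidine and 5.54% from leucine.

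**Figure D4:**
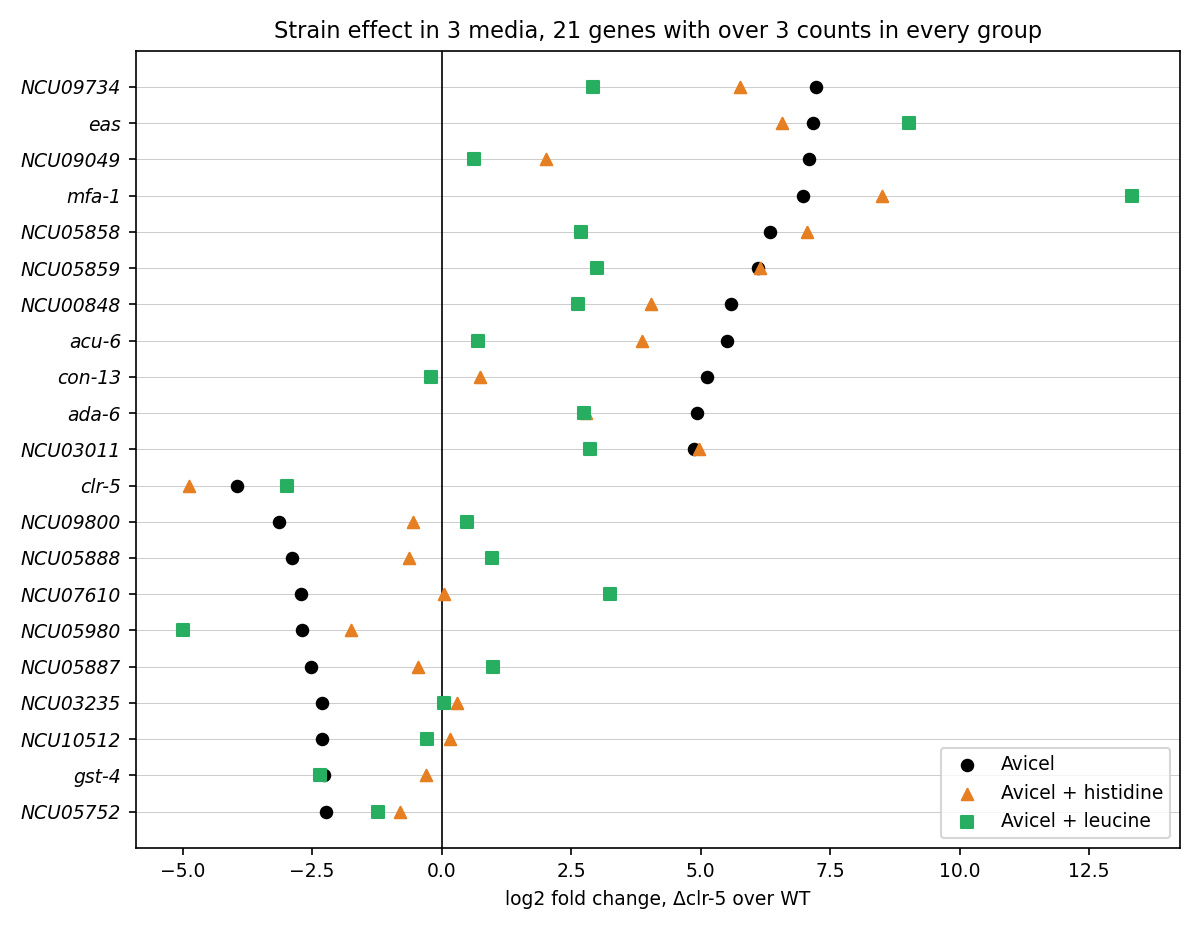
Log2 fold change of Δclr-5 over WT on Avicel (black circles), Avicel with histidine (orange triangles) and Avicel with leucine (green squares) for 21 of the 24 genes with the largest changes on Avicel, leaving out 3 with groups at 3 counts or fewer. For NCU03235 and NCU10512 the Avicel value is near -2.30 and the values on both amino acids are near 0, while NCU05980 is below 0 on all 3 media.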

How the data were processed

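The values used are raw counts per gene, 1 column for each of 12 libraries, as deposited by the authors. Per the labels and the methods of the study, 150 bp paired-end reads were aligned with TopHat (TopHat2 2.0.8b in the submitters' notes) and reads unique to 1 gene were counted with HTSeq 0.13.5, and no counting strand is stated. Deposited counts sum to 16797962 to 20381308 per library. Genes were paired with symbols and OR74A coordinates by locus number (9729 of 9730), and product names came from the study's annotation column for 1937 genes. Reads were not aligned again, and promoter sequences were not analysed here.

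All 12 libraries were fitted in 6 groups with edgeR 4.0.16 in R 4.3.3 (filterByExpr, TMM, robust quasi-likelihood F test, Benjamini-Hochberg adjustment over 8805 genes). The fit had 6 residual degrees of freedom, and its common biological coefficient of variation was 0.174. Each standard error was taken as the size of the log2 change over the square root of F. Calls needed an adjusted p below 0.05 and a change of 0.5 log2 units or more. The alternatives were DESeq2 1.42.0, scaling by RLE or library size, other filters (none, or 5 CPM in 2 libraries), the adjusted p alone, a replicate block, only the 4 Avicel libraries, and each library left out. Intervals and floors cover counting error only.

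Named genes are clr-5, the 12 largest changes each way among genes called in the full fit and without each Avicel library at a mean of 8 CPM or more, up to 4 called members of each gene list and any member of a list described as a whole, genes at 0 in 1 strain, the 5 largest differences between media each way, the 5 most abundant genes per strain, and named genes that differ most between the Δclr-5 cultures. The comparison, the lists and this rule were chosen with earlier results of these data known. Of 43 lists, 9 came after the reference symbols had been read. Lists are described by counts and medians with no test.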

Additional observations from a re-analysis of the deposited data

Results flagged for a closer look

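For the genes below, the difference between the strains on Avicel was unlike that on an amino acid medium by the test of the difference itself (log2 fold change on Avicel minus that on the other medium, edgeR's quasi-likelihood test). No explanation was tested.

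Among the genes with the largest decreases on Avicel, the difference from histidine was -2.60 (adjusted p = 0.0182) for NCU09800, -2.77 (adjusted p = 0.0383) for NCU07610, -2.07 (adjusted p = 0.0158) for NCU05887 and -0.94 (adjusted p = 0.00834) for NCU05980. It was -2.60 (adjusted p = 0.00118) for NCU03235, -2.47 (adjusted p = 0.000351) for NCU10512, -1.97 (adjusted p = 0.00466) for gst-4 and -1.44 (adjusted p = 0.00903) for NCU05752. From leucine, it was -3.64 (adjusted p = 0.00715) for NCU09800, -3.87 (adjusted p = 0.00422) for NCU05888, -5.97 (adjusted p = 0.00218) for NCU07610 and -3.52 (adjusted p = 0.00139) for NCU05887. It was -2.35 (adjusted p = 0.00421) for NCU03235 and -2.02 (adjusted p = 0.00172) for NCU10512, and NCU05980 differed the other way, at 2.30 (adjusted p = 0.000328).

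Among the genes with the largest increases, the difference from histidine was 5.87 (adjusted p = 0.0142) for app, which had 0 and 6 counts in WT on histidine, and 5.06 (adjusted p = 0.0337) for NCU09049. From leucine it was 6.47 (adjusted p = 0.0157) for NCU09049, 3.65 (adjusted p = 0.00852) for NCU05858, 2.95 (adjusted p = 0.0373) for NCU00848, 4.81 (adjusted p = 0.0180) for acu-6 and 5.32 (adjusted p = 0.0468) for con-13. The pheromone gene mfa-1 differed the other way, at -6.36 (adjusted p = 0.000910).

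The other genes were among the largest differences between media at any effect on Avicel. Negative differences from histidine were -4.32 (adjusted p = 7.97e-05) for NCU07046, -3.73 (adjusted p = 0.00106) for NCU05819, -3.61 (adjusted p = 0.00327) for NCU04475, -3.51 (adjusted p = 0.000104) for NCU01424 and -3.41 (adjusted p = 0.000216) for NCU09395. Positive ones were 6.84 (adjusted p = 0.0336) for NCU09859, 5.998 (adjusted p = 0.000113) for ccg-13, 5.86 (adjusted p = 0.00290) for gh61-4, 2.49 (adjusted p = 0.000449) for NCU01298, 4.05 (adjusted p = 0.0367) for NCU01871 and 4.55 (adjusted p = 0.00768) for NCU07853. The difference from leucine was -4.71 (adjusted p = 3.03e-05) for NCU01298, 5.08 (adjusted p = 0.0320) for NCU01871 and 3.82 (adjusted p = 0.0302) for NCU07853. On Avicel, NCU09859 had 59 and 1022 counts in the Δclr-5 cultures, against 5 and 5 in WT, so that its value rests mainly on 1 culture.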

How the results depend on the processing

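The counts of 737 lower and 1035 higher genes became 401 and 1694 with library size scaling alone and 119 and 203 in a fit of only the 4 Avicel libraries. DESeq2 on those 4 libraries, chosen after seeing the data, gave 376 and 613. They stayed within 1.5 times with DESeq2 on all 12 libraries (907 and 1127), RLE scaling, both other filters and the adjusted p alone. Leaving out 1 Avicel library gave 349 to 1204 lower and 398 to 1523 higher genes.

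The replicate block gave 494 lower and 694 higher genes. Same-numbered cultures share only a number: the correlation of their deviations was -0.24 on Avicel, -0.10 on histidine and -0.06 on leucine. The crossed pairing, chosen after seeing the data, gave 871 and 1091. Genes whose effect differed from histidine numbered 669 with the block and 471 to 2392 without 1 library, against 1263. Those differing from leucine numbered 143 with the block, 1006 with DESeq2 and 159 to 1389 without 1 library, against 488.

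Without Δclr-5 culture 1, acu-5 was at -0.75 (adjusted p = 0.0212) and ena-1, a cation ATPase gene, at -0.57 (adjusted p = 0.0199), and without Δclr-5 culture 2 they were at 0.56 and 0.52, against 0.05 and 0.07 with all libraries. The cause was not tested for any of these changes.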
